A study of Mus musculus with 2 samples.

Results

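Lipocalin 2 (Lcn2), serum amyloid A3 (Saa3), the serpin Serpina3n, ceruloplasmin (Cp), the metalloreductase Steap4, pentraxin 3 (Ptx3) and the metalloprotease inhibitor Timp1 are 7 genes that cells switch on in acute inflammation and injury. They were followed through the brain cells of mice with a disease like neuromyelitis optica spectrum disorder, in which antibodies to the astrocyte water channel aquaporin-4 damage the tissue. The 7 were picked by symbol out of 32285 genes, with their levels in cell clusters of these same libraries known. Their levels across cell classes are therefore described and carry no test. All 7 passed the minimum of 20 UMIs in each library. Products of 6 of them are secreted, while Steap4 stays in the membrane, so the name "secreted proteins" does not hold for the whole set.

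The cells came from the brain of C57BL mice aged 8 to 13 weeks, 24 h into the model. A CD45-negative subset and a CD45-positive subset, CD45 being the surface protein of leukocytes, gave 1 droplet library each after the tissue had been digested with enzymes. The labels name neither the way the model was made, nor the number of mice in a library, nor the method that parted the subsets. No brain outside the model is analysed here, so the values show which cells held these transcripts and not whether the model changed them. With 1 library per subset there is no replicate check, no test and no p-value. Every interval below is a 95% interval that covers counting error only.

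The acute-phase response is best known from the liver, where interleukin 6, interleukin 1 and related cytokines act through STAT3, C/EBP and NF-kB factors to change the set of proteins released into blood. In the brain, glia and vessel cells make some of the same proteins in place. Lipocalin 2 binds the siderophores by which bacteria take up iron. Serum amyloid A3 is a lipid-binding protein that attracts leukocytes. Serpina3n inhibits serine proteases such as granzyme B, and Timp1 inhibits matrix metalloproteases. Pentraxin 3 is a pattern-recognition protein that binds complement C1q. Ceruloplasmin carries copper and oxidises iron as it leaves cells, and Steap4 reduces iron and copper at the membrane before uptake.

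After filtering, 12817 of 14524 barcodes (88.2%) remained in the CD45-negative library and 8432 of 8662 (97.3%) in the CD45-positive library. The median depth was 5412 UMIs per CD45-negative cell and 6088 UMIs per CD45-positive cell, and 27 barcodes occurred on both sides. Ptprc, the CD45 gene, was at 7.90 CPM among CD45-negative cells, against 612 CPM among CD45-positive cells, the direction the gate's labels state. CPM here means the UMIs of a gene scaled to 1000000 UMIs of the same library, class or cluster. A 3' library counts molecules and not bases, so levels of different genes were not ranked against each other. Each library was clustered alone, without the 7 genes and without 34 other acute-phase genes, and clusters were named "-like" from marker genes. Classes are ranked from 50 cells upwards, and smaller ones are given with their cell number.

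Part of the sequence before the start sites is shown as a description, and no link between sequence and level was tested. The windows searched were the 250 bases before each RefSeq start site, on build GRCm38.p6, for 7 of 7 genes. Cp had 2 start sites and so 2 windows, and a gene was counted if any of its windows held a match. Counts of genes and shares of windows thus have unlike bases. The C/EBP-type letters TTGCNNAA, read on both strands, occurred in the windows of 5 of the 7 genes and in 9.56% of all 32851 windows. They are given in capitals on the strand of the gene, 5′ to 3′, in stretches of 30 bases centred on the match, and these 8 capital letters overlapped no match of the other motifs searched. Some windows reach into annotated exons, by 197 bases for Lcn2, 195 for the second start of Cp, 98 for Steap4 and 24 for Saa3, so the letters shown for Lcn2 and Cp lie inside the annotated genes.
Lcn2, 216 bases before the start, chr2:32387937-32387966, minus strand: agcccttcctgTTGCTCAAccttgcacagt
Saa3, 99 bases before the start, chr7:46715757-46715786, minus strand: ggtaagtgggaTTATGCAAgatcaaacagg
Cp, 70 bases before its second start, chr3:19957168-19957197, plus strand: attagttactcTTTTGCAAcattaaattgt
Steap4, 87 bases before the start, chr5:7960374-7960403, plus strand: cacagctcctcTTGCGAAAtcaagcgggcc
Ptx3, 57 bases before the start, chr3:66219819-66219848, plus strand: gtggtttaacaTTGTGCAAcctcttcagct
The windows of Serpina3n and Timp1, and the first start site of Cp, did not hold these letters. The STAT-type letters TTCNNNGAA were found in 1 of 7 genes (Steap4) and in 7.02% of all windows. The AP-1-type letters TGANTCA were found in 1 of 7 genes (Cp) and in 6.75% of all windows. NF-kB-type letters, GGG and CC with 5 free bases between them, were found in 5 of 7 genes and in 45.8% of all windows. A match describes letters in this window and shows no binding.

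Ptx3, whose level differed widely among astrocyte-like clusters, and Saa3, whose level differed widely among pericyte-like clusters, are shown with the longer stretch that precedes any annotated exon, again with the C/EBP-type letters in capitals.
Ptx3, chr3:66219637-66219886, plus strand: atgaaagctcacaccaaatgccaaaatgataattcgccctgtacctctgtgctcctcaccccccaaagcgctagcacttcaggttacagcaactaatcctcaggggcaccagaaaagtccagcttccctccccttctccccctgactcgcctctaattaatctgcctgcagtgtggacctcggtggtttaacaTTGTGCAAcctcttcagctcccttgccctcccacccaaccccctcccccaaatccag
Saa3, chr7:46715701-46715926, minus strand: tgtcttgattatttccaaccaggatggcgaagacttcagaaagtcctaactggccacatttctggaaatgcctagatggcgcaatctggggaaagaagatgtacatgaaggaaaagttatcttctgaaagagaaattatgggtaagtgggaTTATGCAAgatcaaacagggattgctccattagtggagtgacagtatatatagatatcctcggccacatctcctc

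Between the libraries, 6 of the 7 genes were at least 2-fold higher in the CD45-negative library, where 40.9% of 18379 genes were, and Saa3 alone was at least 2-fold higher in the CD45-positive library, where 16.5% of genes were. Serpina3n was 124-fold (109 to 141) higher among CD45-negative cells, and Ptx3, at 26.3 CPM there against 0.568 CPM among CD45-positive cells, was 46.3-fold (34.2 to 64.5) higher. These transcripts thus lay almost wholly on the CD45-negative side.
Steap4 was at 12.2 CPM among CD45-negative cells, against 1.43 CPM among CD45-positive cells (8.48-fold, 6.94 to 10.5). Cp was at 155 CPM among CD45-negative cells, against 24.5 CPM among CD45-positive cells (6.32-fold, 6.01 to 6.64). Lcn2 was 3.22-fold (3.12 to 3.32) higher among CD45-negative cells, and Timp1, at 30.7 CPM there against 10.2 CPM among CD45-positive cells, was 3.00-fold (2.76 to 3.26) higher. Lcn2 and Timp1 had a smaller difference than the other 4 genes that were higher among CD45-negative cells. Saa3 was at 85.6 CPM among CD45-negative cells, against 436 CPM among CD45-positive cells, that is 5.09-fold (4.96 to 5.23) higher on the CD45-positive side. The median log2 difference, CD45-negative over CD45-positive, was 2.66 over the 7 genes and 0.58 over all genes tested. Scaling by edgeR's trimmed mean moved every log2 difference by -0.47 and the median of ratios by -0.52, and neither turned a direction. A difference between whole libraries reflects both which cells passed the gate and how much each held.

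**Figure D1:**
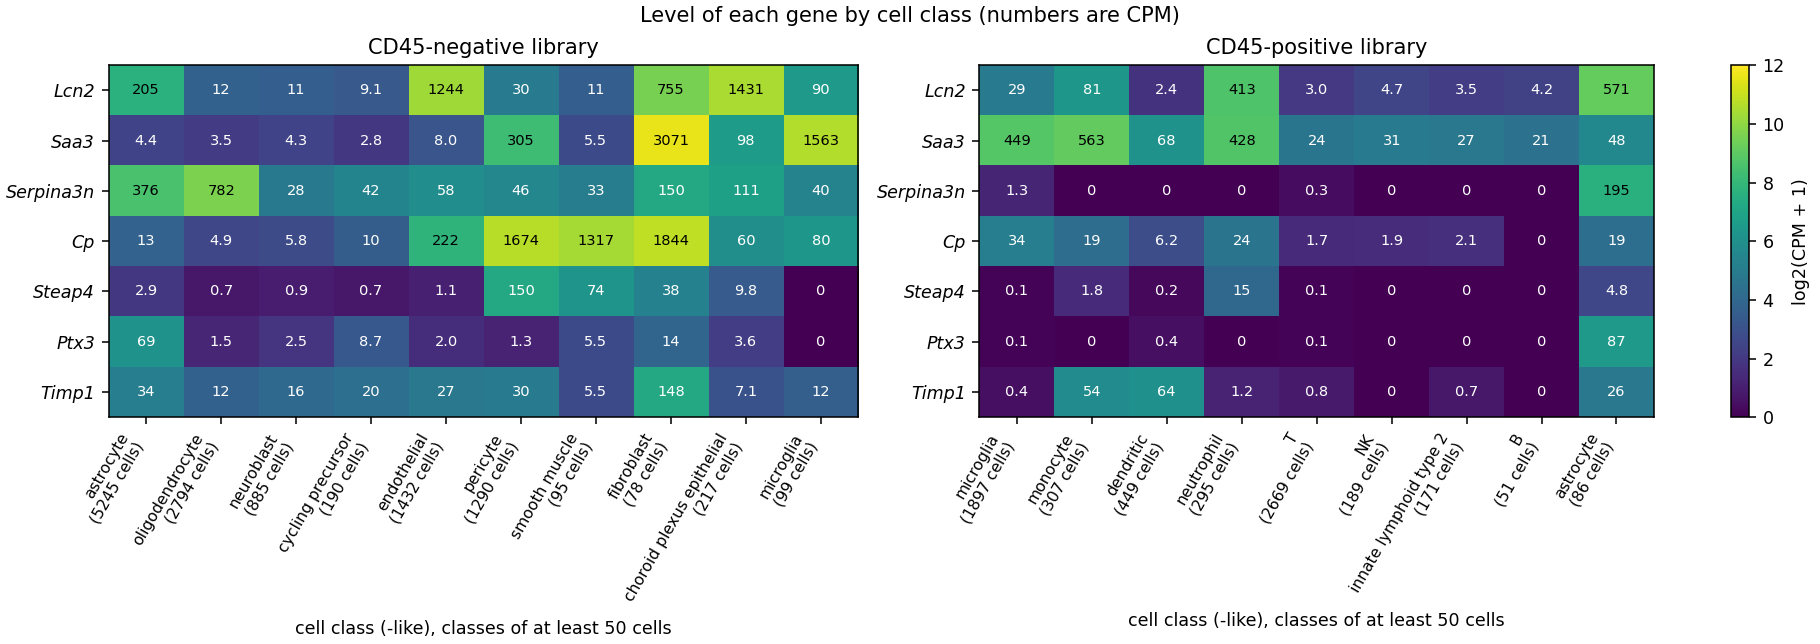
Level of each gene (rows) in each cell class of at least 50 cells (columns), with CD45-negative classes in the left panel and CD45-positive classes in the right; the colour is log2(CPM + 1) and the printed number is CPM. Each gene has its own pattern: Serpina3n is brightest in oligodendrocyte-like (782) and astrocyte-like (376) cells, Cp in fibroblast-like, pericyte-like and smooth muscle-like cells, and Saa3 in myeloid, fibroblast-like and pericyte-like cells.

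The 7 genes did not share a leading cell class. Among 17254 genes of the CD45-negative library, the members at least 2-fold higher in a class than in its other cells numbered 5 in fibroblast-like cells (13.2% of all genes), 3 in pericyte-like cells (11.9%) and 2 in smooth muscle-like cells (13.1%). The count was 1 each in astrocyte-like (18.7%), choroid plexus epithelial-like (12.2%), endothelial-like (11.9%), microglia-like (13.6%) and oligodendrocyte-like cells (8.98%), and 0 in neuroblast-like (14.8%) and cycling precursor-like cells (14.1%). Among 14783 genes of the CD45-positive library, it was 5 in astrocyte-like (25.5%), 2 in neutrophil-like (4.47%), 1 in monocyte-like (4.54%) and 1 in dendritic-like cells (7.57%). It was 0 in microglia-like (6.15%), T-like (13.0%), B-like (9.97%), NK-like (10.1%) and innate lymphoid type 2-like cells (8.43%). Of the 5 in CD45-positive astrocyte-like cells, Steap4 rested on 2 UMIs of 1 cell. Of the 5 in fibroblast-like cells, Saa3 had 1210 of its 1309 UMIs in 1 cell. Fibroblast-like Lcn2 was at 358 CPM without its highest cell, against 226 CPM in the other cells of the library. The genes were chosen on such levels, so nothing is read from these counts.

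Neuroblast-like cells, immature neurons not known for these genes, served as the gauge of free RNA in the CD45-negative library. Their 885 cells had a median of 7463 UMIs, and each member was at 0.863 to 28.2 CPM in them. After every cell was thinned to 1000 UMIs, 0.113% (Steap4, Ptx3) to 3.05% (Serpina3n) of neuroblast-like cells had a UMI. T-like cells served the same purpose on the CD45-positive side, where 2669 cells had a median of 4677 UMIs. Saa3 was at 24 CPM there and was seen in 3.50% of thinned T-like cells, while each of the others was seen in at most 0.263%.

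Lcn2 (ENSMUSG00000026822; mm10 chromosome 2, 32384633 to 32388252, minus strand) had its highest class levels of the CD45-negative library in barrier cells. Lcn2 differed widely among clusters of these cells, as described further on. It was at 1431 CPM (1382 to 1481) in choroid plexus epithelial-like cells, which make cerebrospinal fluid, and at 1244 CPM (1217 to 1271) in endothelial-like cells. It stood at 755 CPM (675 to 843) in fibroblast-like cells, where 1 of 78 cells held 173 of 322 UMIs and the level without that cell was 358 CPM. Astrocyte-like cells had 205 CPM (200.3 to 211).
Endothelial-like cells held 43.3% of the library's Lcn2 UMIs, astrocyte-like cells 31.6% and choroid plexus epithelial-like cells 17.0%. Thinned shares of cells with a UMI were 38.8% in choroid plexus epithelial-like, 17.9% in endothelial-like and 4.83% in astrocyte-like cells, against 1.24% in neuroblast-like cells. Lcn2 is also stored in the granules of neutrophils, and the 49 neutrophil-like cells of this library had 561 CPM, beside microglia markers at a summed 12610.2 CPM.

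Saa3 (ENSMUSG00000040026; mm10 chromosome 7, 46711998 to 46715700, minus strand) rested in the CD45-negative library on few cells. Fibroblast-like cells were at 3071 CPM, but a single cell held 1210 of their 1309 UMIs, and the level without it was 239 CPM. Microglia-like cells were at 1563 CPM (1458 to 1674), or 787 CPM without their highest cell. The 49 neutrophil-like cells, too few to rank, had 813 CPM (751 to 879), or 490.5 CPM without their highest cell. A UMI was found in 25.5% of these cells after thinning, and their microglia markers were at a summed 12610.2 CPM. Pericyte-like cells, the contractile cells of capillary walls, had 305 CPM (289 to 321), with a UMI in 4.05% of thinned cells against 0.679% of neuroblast-like cells. Choroid plexus epithelial-like cells had 97.9 CPM (85.4 to 112), with a UMI in 4.98% of thinned cells. Astrocyte-like (4.41), endothelial-like (8.04), oligodendrocyte-like (3.45) and neuroblast-like cells (4.31 CPM) lay close together, and their thinned shares of 0.401% to 0.679% were at the level of the gauge. Saa3 has the near copies Saa1 and Saa2, so some reads may be shared.

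Serpina3n (ENSMUSG00000021091; mm10 chromosome 12, 104406729 to 104414329, plus strand) was a glial transcript. Oligodendrocyte-like cells, the makers of myelin, had 782 CPM (771 to 792) and held 61.7% of its UMIs. Astrocyte-like cells had 376 CPM (369 to 383) and held 32.7%. A UMI was found in 35.0% of thinned oligodendrocyte-like and 22.3% of thinned astrocyte-like cells, against 3.05% of neuroblast-like cells.
The next classes were fibroblast-like cells at 150.1 CPM, or 91.2 CPM without their highest cell, and choroid plexus epithelial-like cells at 111 CPM. Endothelial-like, pericyte-like, cycling precursor-like, microglia-like, smooth muscle-like and neuroblast-like cells were between 28.2 and 57.7 CPM. The 34 ependymal-like cells, too few to rank, had 1659.7 CPM. Serpina3n belongs to a cluster of near copies, so counts may include reads of its neighbours.

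Cp (ENSMUSG00000003617; mm10 chromosome 3, 19957054 to 20009145, plus strand, overlapping Hps3 on the other strand) was a transcript of the vessel wall. It was at 1844 CPM (1717 to 1977) in fibroblast-like, 1674 CPM (1638 to 1711) in pericyte-like and 1317 CPM (1202 to 1439.7) in smooth muscle-like cells. Pericyte-like cells held 62.1% of its UMIs, and 69.8% of them had a UMI after thinning. The order of fibroblast-like and pericyte-like cells turned without the highest cell of each, at 1623 and 1663 CPM. Endothelial-like cells had 222 CPM (210.4 to 233) with a UMI in 17.0% of thinned cells, against 0.566% of neuroblast-like cells. Astrocyte-like cells, a textbook site of ceruloplasmin in the brain, had 12.7 CPM (11.4 to 14.1) and a thinned share of 1.15%.

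Steap4 (ENSMUSG00000012428; mm10 chromosome 5, 7960457 to 7982213, plus strand) followed the same wall cells at a lower share of cells. Pericyte-like cells had 149.7 CPM (139 to 161), held 70.7% of its UMIs and showed it in 11.3% of thinned cells. Smooth muscle-like cells had 73.8 CPM (48.6 to 107) and fibroblast-like cells 37.5 CPM (21.5 to 61.0), intervals that overlap. The remaining classes of at least 50 cells were at 9.79 CPM or below, while 34 ependymal-like cells had 73.0 CPM (44.6 to 113), and no UMI was found in 99 microglia-like cells, which allows up to 7.06 CPM.

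Ptx3 (ENSMUSG00000027832; mm10 chromosome 3, 66219910 to 66225805, plus strand, overlapping Veph1 on the other strand) was an astrocyte transcript. Astrocyte-like cells had 69.4 CPM (66.4 to 72.5) and held 92.9% of its UMIs in the CD45-negative library. No other class of at least 50 cells exceeded 14.1 CPM, the value of fibroblast-like cells, which rested on 6 UMIs, 5 of them in 1 cell. Of the 7 genes it was the 1 that was at least 2-fold higher in astrocyte-like cells, at 69.4 CPM, than in the other cells of the library, at 2.90 CPM.

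Timp1 (ENSMUSG00000001131; mm10 chromosome X, 20870166 to 20874735, plus strand, inside Syn1 on the other strand) was highest in fibroblast-like cells, at 148 CPM (114 to 189), and close together in the next 3 classes. Astrocyte-like cells had 34.4 CPM (32.3 to 36.6) and held 39.3% of its UMIs, pericyte-like cells had 30.4 CPM (25.6 to 35.7) and endothelial-like cells 27.0 CPM (23.2 to 31.3). Pericyte-like cells overlapped both neighbours in this order, while astrocyte-like and endothelial-like cells did not overlap. Neuroblast-like cells had 16.1 CPM (13.3 to 19.4). With cells called doublets kept, 999 pericyte-like cells were at 151 CPM and 79 fibroblast-like cells at 146 CPM. The main run had 1290 pericyte-like cells, so the name covered a different set of cells there.

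**Figure D2:**
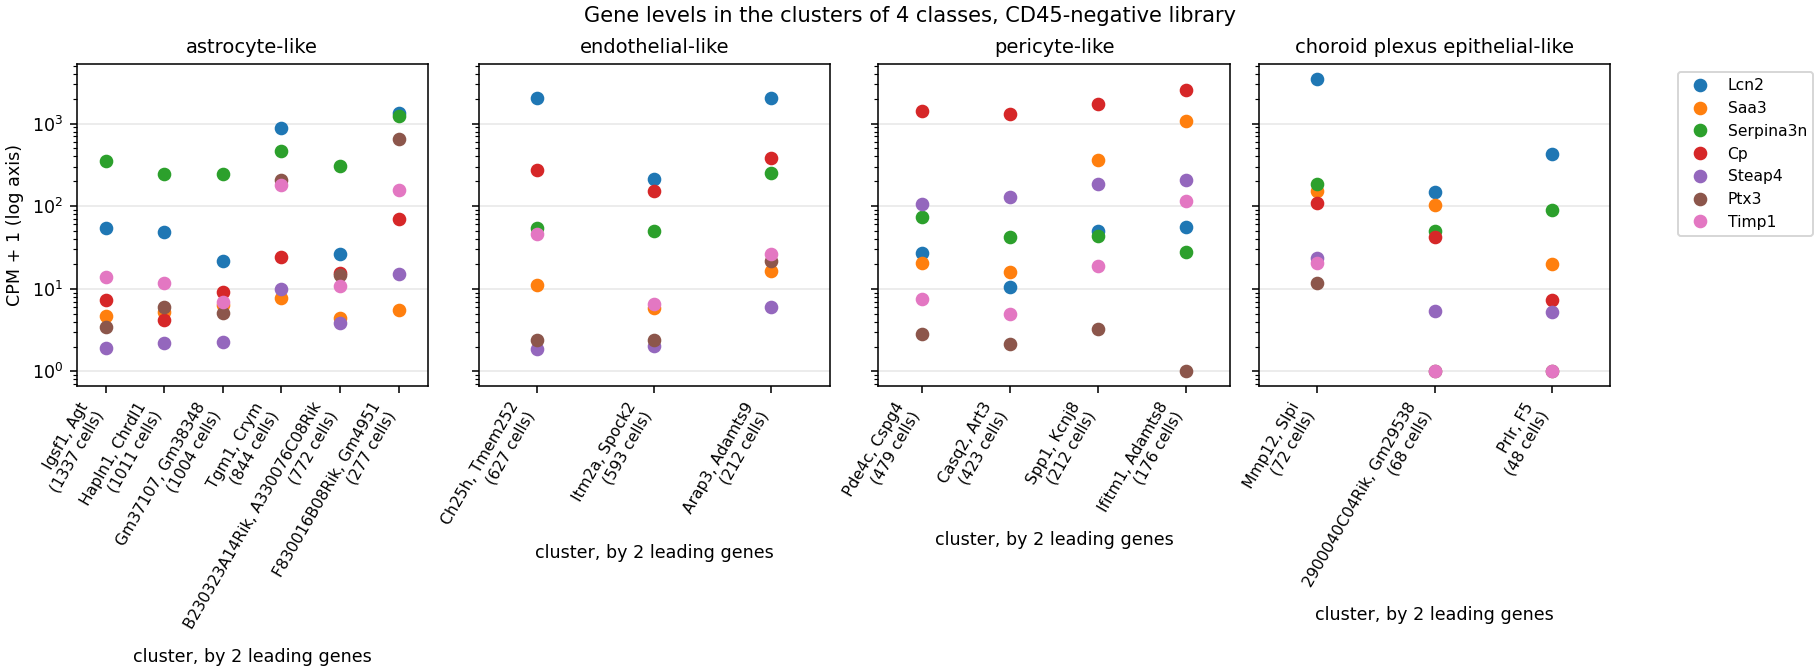
Level of the 7 genes (CPM + 1, log axis, so a gene with no UMI sits at 1) in the clusters of at least 40 cells of 4 CD45-negative classes; each column is 1 cluster, named by its 2 leading genes outside the acute-phase lists, with its cell number. Lcn2 spans 20.9 to 1349 CPM among astrocyte-like clusters and 213 to 2047 CPM among endothelial-like clusters, whereas Cp stays between 1286 and 2563 CPM in all pericyte-like clusters.

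Within classes, the level often came from a part of the cells, although none of the 7 genes had been used to divide them. Of 5245 astrocyte-like cells, 277 formed a cluster led outside the acute-phase lists by F830016B08Rik, Gm4951 and Slc10a6, and 844 formed a cluster led by Tgm1 and Crym that had Gfap, the intermediate filament of astrocytes, among its 10 leading genes. In the cluster of 277 cells Lcn2 was at 1349 CPM, Ptx3 at 646, Serpina3n at 1239.8 and Timp1 at 154 CPM. In the cluster of 844 cells Lcn2 was at 869.6 CPM, Ptx3 at 205, Serpina3n at 462 and Timp1 at 178 CPM. The other 4 astrocyte-like clusters had 20.9 to 53.1 CPM of Lcn2, 2.43 to 13.8 CPM of Ptx3, 242 to 351 CPM of Serpina3n and 5.86 to 12.8 CPM of Timp1.
The same 2 clusters thus carried the high levels of Lcn2, Ptx3 and Timp1. Serpina3n was highest in these 2 as well, but its 462 CPM in the cluster of 844 cells compares with up to 351 CPM elsewhere. It was at 242 CPM or more in every astrocyte-like cluster. The cluster of 277 cells held 65.9% of all Ptx3 UMIs of the library and the cluster of 844 cells 21.2%. Cells of the cluster of 844 had a median of 2218 UMIs, against 7503 in the cluster of 277 and 3988 to 7704 in the other 4, and the part of this lower depth in the levels was not tested. Cp was at 68.7 CPM in the cluster of 277 cells and at 3.19 to 23.2 CPM in the other 5 clusters.

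Among endothelial-like cells Lcn2 was at 2031 CPM (1985 to 2079) in a cluster of 627 cells led by Ch25h, which makes 25-hydroxycholesterol, and Tmem252. It was at 213 CPM (197 to 231), or 128 CPM without the highest cell, in a cluster of 593 cells led by Itm2a and Spock2. The remaining cluster, of 212 cells with a median of 786.0 UMIs, had 2047 CPM, or 812 CPM without its highest cell. Timp1 was at 44.4 CPM in the Ch25h cluster and 5.60 CPM in the Itm2a cluster. Cp was at 271 CPM in the Ch25h cluster and 149.9 CPM in the Itm2a cluster. The Ch25h cluster held 38% of the library's Lcn2 UMIs. Among choroid plexus epithelial-like cells, a cluster of 72 cells led by Mmp12, Slpi and Mmp3 had 3475 CPM of Lcn2 (3334 to 3620.4), with a UMI in 69.0% of thinned cells. The clusters of 48 and 68 cells beside it had 427 and 146 CPM.

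Among pericyte-like clusters Cp and Steap4 varied less than Saa3 and Timp1. Cp was at 1286 to 2563 CPM and Steap4 at 104 to 207 CPM in all 4 clusters. Saa3 was at 1080.0 CPM (1017 to 1146) in a cluster of 176 cells led by Ifitm1 and Adamts8 and at 356 CPM in a cluster of 212 cells led by Spp1 and Kcnj8, against 15.1 and 19.6 CPM in the other 2. Timp1 was at 114 CPM in the Ifitm1 cluster and at 3.93 to 18.1 CPM in the other 3. In the Ifitm1 cluster Cp (2563) and Steap4 (207 CPM) were at their highest of the 4 clusters too.
A further cluster of 179 cells, with a median of 1084 UMIs, carried 8 of the pericyte markers. It was left unnamed because it was shallow and none of its 10 leading genes was a pericyte marker. The cluster was led by Il6, Il11 and Avpr1a, with the fibroblast marker Dcn also among the 10. It had 4355 CPM of Saa3 (4179.6 to 4536), 2374 CPM of Cp, 1074 CPM of Timp1 and 159 CPM of Steap4. It alone held 32.9% of the Saa3 and 22.6% of the Timp1 UMIs of the CD45-negative library, and 24% of its thinned cells had UMIs of 3 or more of the 7 genes. Without its highest cell Saa3 was at 2836 CPM.

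The 3 oligodendrocyte-like clusters differed little from each other in Serpina3n, at 835 CPM, 779 CPM and 663 CPM in clusters of 659, 1313 and 822 cells. Timp1 was at 31.5 CPM in the cluster of 659 cells, which was led by Btc and Cgref1 and had Srxn1 and Gadd45b, genes of oxidative and DNA-damage stress, among its 10 leading genes. It was at 3.39 and 6.41 CPM in the other 2. Lcn2, Saa3, Cp, Steap4 and Ptx3 stayed at or below 18.9 CPM in all 3.

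**Figure D3:**
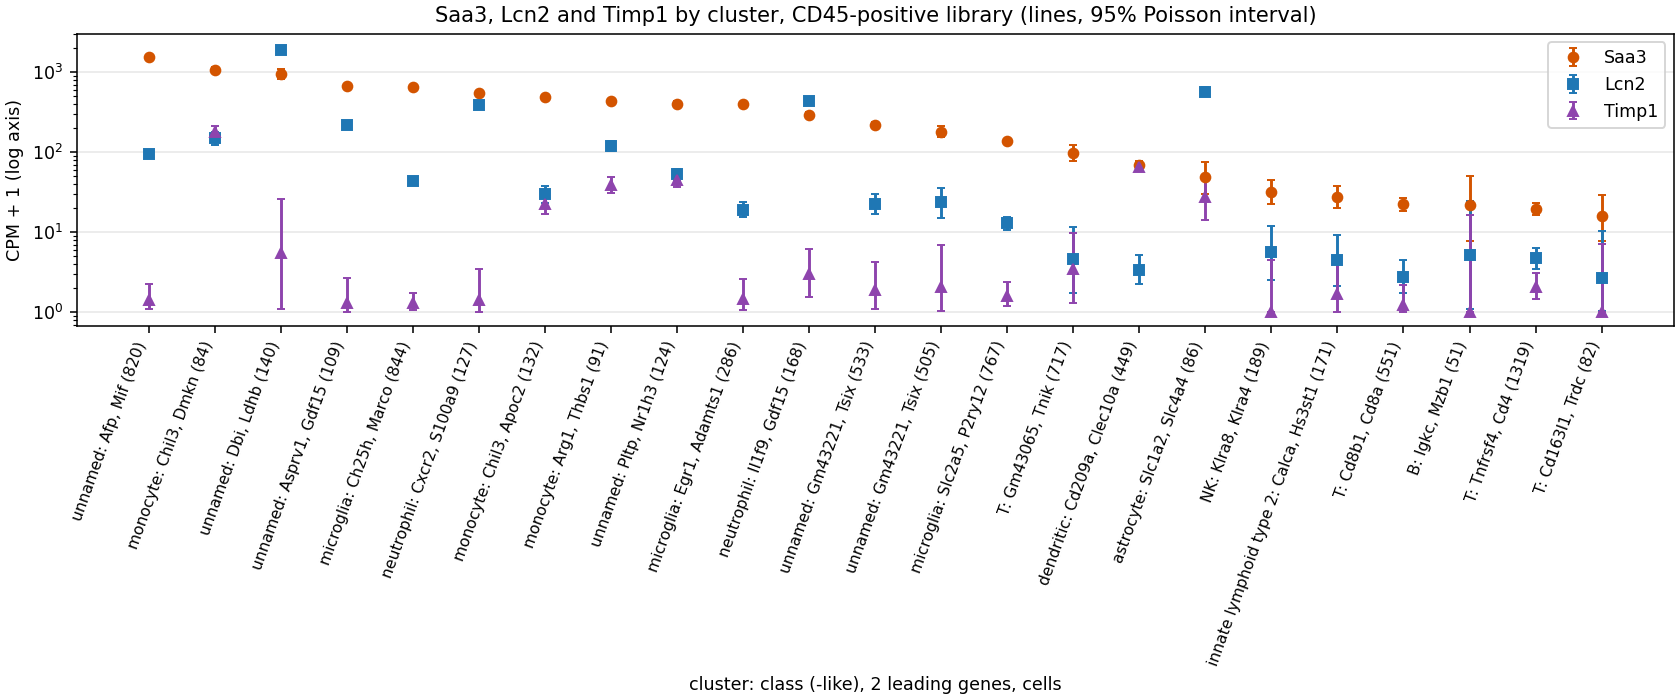
Saa3, Lcn2 and Timp1 (CPM + 1, log axis; lines are 95% Poisson intervals) in the CD45-positive clusters of at least 50 cells, ordered by Saa3 and named by class, 2 leading genes and cell number. Saa3 is high in most myeloid clusters and lowest in lymphoid ones, Lcn2 peaks in an unnamed cluster of 140 cells (1887 CPM), and Timp1 stands out in monocyte-like and dendritic-like clusters.

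On the CD45-positive side Saa3 was spread over the myeloid cells. Monocyte-like cells had 563 CPM (542 to 584), microglia-like cells 449 CPM (441 to 457) and neutrophil-like cells 428 CPM (408 to 448), and the intervals of microglia-like and neutrophil-like cells overlapped. Dendritic-like cells had 68.4 CPM, or 24 CPM without the cell that held 225 of their 345 UMIs. Thinned shares of cells with a UMI were 17.1% in monocyte-like, 14.2% in neutrophil-like and 8.01% in microglia-like cells, against 3.50% in T-like cells. The neutrophil-like cells also had microglia markers at a summed 20711 CPM, against 25645 CPM in microglia-like cells. The part of such mixed RNA in the Saa3 level of neutrophil-like cells was not tested. Microglia-like cells held 36.4% of the Saa3 UMIs. T-like, NK-like, B-like and innate lymphoid type 2-like cells had 21.1 to 30.9 CPM. The order of the myeloid classes depended on the clustering. The 26 border macrophage-like cells, too few to rank, had 1010.1 CPM (894 to 1138). In the alternatives where at least 50 such cells were found they led, at 1174 CPM (Leiden resolution 2) and 991 CPM (stricter cell filter). With both libraries clustered together, microglia-like cells led at 681 CPM and monocyte-like cells had 314 CPM, while without a cell filter monocyte-like cells had 887 CPM.
Microglia-like clusters again differed. Saa3 was at 653 CPM (639 to 667) in 844 cells led by Ch25h and Marco, at 403 CPM in 286 cells led by Egr1 and Adamts1, and at 137 CPM (129 to 146) in 767 cells led by Slc2a5 and P2ry12, a gene of resting microglia. A cluster of 820 cells that met no class had 1543 CPM (1513 to 1572) and held 32.9% of the library's Saa3 UMIs. All 12 microglia markers were found in at least 20% of its cells, at a summed 15002 CPM, against 25645 CPM in microglia-like cells. Beyond Saa3 it was led by Afp and Mif, and 1 cell held 2287 of its 10609 Saa3 UMIs, without which the level was 1213 CPM. A monocyte-like cluster of 84 cells led by Chil3 and Dmkn had 1075 CPM (1006 to 1147).

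On the CD45-positive side Lcn2 was highest among named classes in 86 astrocyte-like cells that had passed the gate, at 571 CPM (500.3 to 648), or 354 CPM without their highest cell. Neutrophil-like cells had 413 CPM (394 to 433), or 389 CPM without theirs, so these 2 classes have no stable order. Among 76 thinned astrocyte-like cells 3.95% had a UMI, and 2 of the 86 cells held at least 50% of the UMIs. Neutrophil-like cells held 33.0% of the Lcn2 UMIs, and 24.7% of them had a UMI after thinning, against 0.263% of T-like cells. Their summed neutrophil markers were at 6409.6 CPM, but their microglia markers were at 20711 CPM, near the 25645 CPM of microglia-like cells, and the part of such mixed RNA in these levels was not tested. An unnamed cluster of 140 cells with a median of 735.5 UMIs had 1887 CPM of Lcn2, or 930.2 CPM without its highest cell, and 16374 CPM of S100a9, a neutrophil granule gene. Monocyte-like cells had 81.2 CPM and microglia-like cells 28.6 CPM.

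The other 5 genes had narrower sources among CD45-positive cells. Timp1 was at 63.8 CPM (57.1 to 71.2) in dendritic-like and 53.6 CPM (47.4 to 60.3) in monocyte-like cells, intervals that overlap, and at 0.421 CPM in microglia-like cells. Dendritic-like cells held 42.5% and monocyte-like cells 36.0% of its UMIs, but with both libraries clustered together dendritic-like cells were at 13.4 CPM and monocyte-like cells at 131 CPM. Within monocyte-like cells it ranged over clusters from 21.6 to 178 CPM, the highest being 108 CPM without its highest cell. Steap4 was at 15 CPM (11.5 to 19.2) in neutrophil-like cells, which held 59.4% of its 106 UMIs. Cp was at 34.5 CPM (32.3 to 36.8) in microglia-like cells, which held 49.8% of its UMIs, and at 51.1 CPM in their Ch25h and Marco cluster against 12.5 CPM in their Slc2a5 and P2ry12 cluster. Cp was higher in 2 classes of under 50 cells, at 278 CPM (187 to 396) in 24 pericyte-like cells and 208 CPM (157 to 270.0) in 26 border macrophage-like cells. At Leiden resolution 2, 54 border macrophage-like cells led Cp with 138 CPM, and under the stricter cell filter 59 such cells led with 125 CPM.
Serpina3n and Ptx3 were nearly limited to the glia that passed the gate. Astrocyte-like cells had 195 CPM of Serpina3n (155 to 242) and 86.7 CPM of Ptx3 (60.7 to 120.0), where Ptx3 rested on 36 UMIs, of which 20 lay in 1 cell. No other class of at least 50 cells exceeded 1.34 CPM of Serpina3n or 0.397 CPM of Ptx3. The 37 oligodendrocyte-like cells had 443 CPM of Serpina3n.

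Astrocyte-like and microglia-like cells occurred on both sides of the gate. In astrocyte-like cells, CD45-negative over CD45-positive, the ratio was 0.801 (0.577 to 1.15) for Ptx3, 1.30 (0.722 to 2.61) for Timp1 and 0.659 (0.331 to 1.54) for Cp, with intervals that include equality. It was 1.93 (1.55 to 2.43) for Serpina3n and 0.360 (0.316 to 0.412) for Lcn2. The Lcn2 and Ptx3 ratios rest in part on 1 CD45-positive cell each. The share of thinned cells with a UMI of Lcn2 was 4.83% in CD45-negative and 3.95% in CD45-positive astrocyte-like cells. Without the highest cell of each side, Lcn2 was at 193 CPM in CD45-negative and 354 CPM in CD45-positive astrocyte-like cells, and Ptx3 at 63.4 CPM in CD45-negative and 39.6 CPM in CD45-positive ones, so the order turned for Ptx3. Saa3 was at 4.41 CPM in CD45-negative and 48.2 CPM in CD45-positive astrocyte-like cells. The summed microglia markers were at 85.9 CPM in CD45-negative and 2598 CPM in CD45-positive astrocyte-like cells, and their part in the Saa3 difference was not tested.
Microglia-like cells had 1563 CPM of Saa3 among the 99 CD45-negative cells and 449 CPM among the 1897 CD45-positive cells. Without the highest cell the CD45-negative ones had 787 CPM. Lcn2 was at 89.9 CPM in CD45-negative microglia-like cells, or 54.2 CPM without the highest cell, and at 28.6 CPM in CD45-positive ones. The summed neutrophil markers were at 888 CPM in CD45-negative and 125 CPM in CD45-positive microglia-like cells. Their part in the Lcn2 difference was not tested. Serpina3n was at 40.2 CPM in CD45-negative microglia-like cells and 1.34 CPM in CD45-positive ones, and Timp1 at 11.5 CPM in CD45-negative and 0.421 CPM in CD45-positive ones. Neuroblast-like cells, the gauge of free RNA on the CD45-negative side, had 28.2 CPM of Serpina3n and 16.1 CPM of Timp1, and the part of free RNA in these 2 differences was not tested. The median depth was 1352 UMIs in CD45-negative and 11114 UMIs in CD45-positive microglia-like cells, and the gate was set on a protein, so these cells are no random draw.

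**Figure D4:**
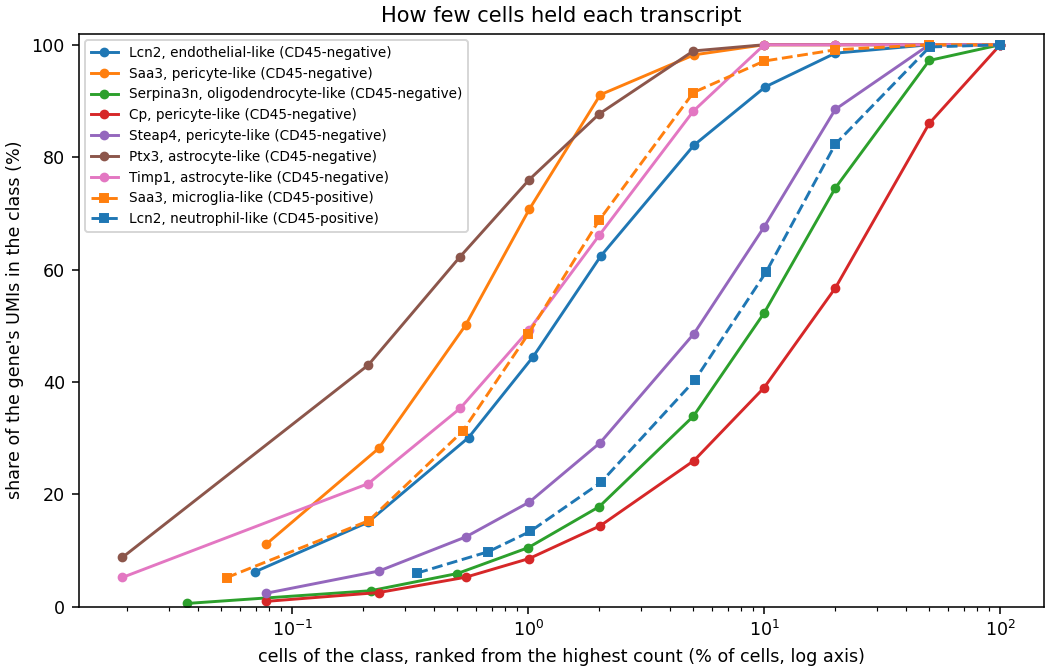
Share of a gene's UMIs in a class (vertical axis, %) held by its highest cells (horizontal axis, % of the cells of the class, log axis); solid lines with circles are CD45-negative classes and dashed lines with squares CD45-positive classes. The curves of Ptx3, Saa3, Timp1 and endothelial Lcn2 rise early, with 44.5% to 76.0% of UMIs in about 1% of the cells, and those of Cp and Serpina3n late, with 8.57% and 10.5%.

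The genes also differed in how unevenly cells of a class shared them. In endothelial-like cells the highest 10% of cells held 92.5% of the Lcn2 UMIs, and a single cell reached 511 UMIs. In astrocyte-like cells 53 of 5245 cells held 76.0% of the Ptx3 and, ranked anew, 49.3% of the Timp1 UMIs. In pericyte-like cells 13 of 1290 cells held 70.7% of the Saa3 UMIs, and in CD45-positive microglia-like cells 19 of 1897 held 48.5%.
Cp and Serpina3n were spread over more of their cells, with 39.0% of the Cp UMIs in the highest 10% of pericyte-like cells and 52.3% of the Serpina3n UMIs in the highest 10% of oligodendrocyte-like cells. Steap4 in pericyte-like cells lay between, at 67.6%, and so did Lcn2 in CD45-positive neutrophil-like cells, at 59.6%. Deeper cells weigh more in such shares, and a gene with few UMIs looks more concentrated.

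**Figure D5:**
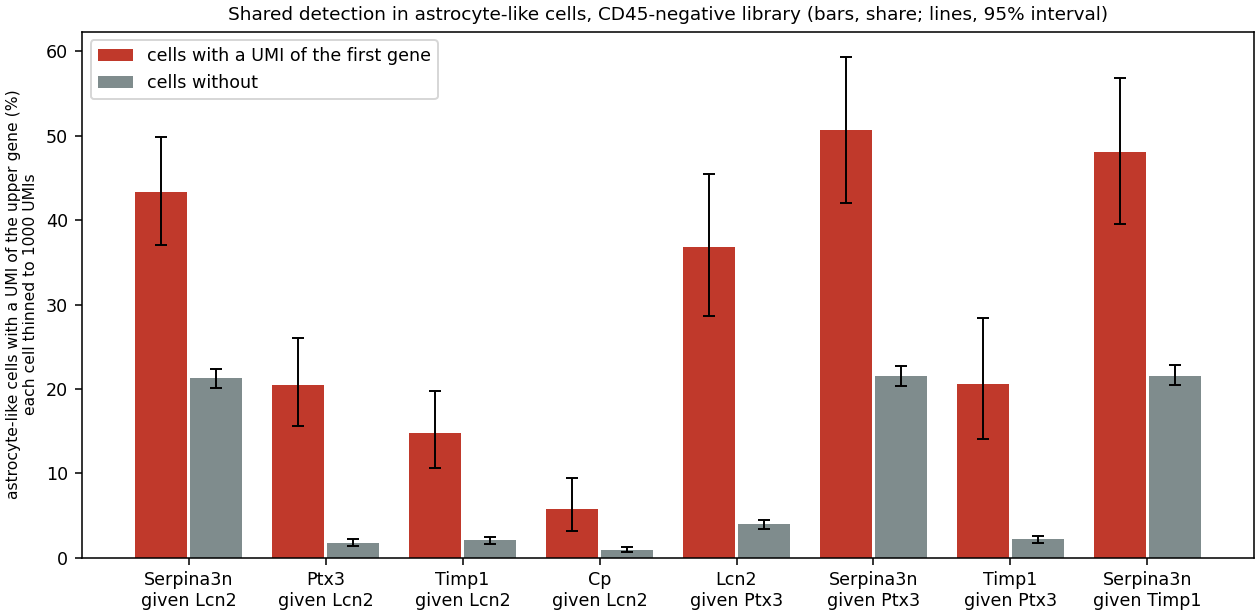
Share of CD45-negative astrocyte-like cells with a UMI of the upper gene (vertical axis, %, every cell thinned to 1000 UMIs) among cells with a UMI of the lower gene (red, left bar) and cells without one (grey, right bar); lines are 95% exact binomial intervals. Every red bar is taller than its grey neighbour, for example 20.5% and 1.79% for Ptx3 given Lcn2.

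At equal depth, astrocyte-like cells with a UMI of Lcn2 more often held Ptx3, Timp1 or Serpina3n than astrocyte-like cells without one. Of 5047 thinned cells, 244 had a UMI of Lcn2. Ptx3 was found in 20.5% (15.6 to 26.1) of cells with and 1.79% (1.43 to 2.21) of cells without Lcn2, and Timp1 in 14.8% (10.6 to 19.8) of cells with and 2.06% (1.68 to 2.50) of cells without Lcn2. Serpina3n was found in 43.4% (37.1 to 49.9) of cells with and 21.3% (20.1 to 22.4) of cells without Lcn2. Among the 136 cells with Ptx3, Lcn2 was found in 36.8% (28.7 to 45.5) and Serpina3n in 50.7% (42.0 to 59.4).
Saa3 was found in 0 of the 244 cells with Lcn2, which allows a share of up to 1.5%, and in 0.541% of cells without. In endothelial-like cells Cp was found in 33.2% (27.1 to 39.7) of cells with and 13.5% (11.5 to 15.7) of cells without Lcn2, while Timp1 was found in 3.06% (1.24 to 6.20) of cells with and 2.48% (1.62 to 3.61) of cells without it, intervals that overlap. In pericyte-like cells Cp was found in 91.8% (80.4 to 97.7) of cells with and 68.8% (66.1 to 71.5) of cells without Saa3. In CD45-positive neutrophil-like cells Saa3 was found in 16.2% (8.36 to 27.1) of cells with and 13.5% (9.18 to 19.0) of cells without Lcn2, intervals that overlap. Cells of 1 library are not replicates, and the difference between classes was not tested.

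Over 53 clusters of at least 50 cells, 30 CD45-negative and 23 CD45-positive, the pattern of each gene was set beside those of 14405 genes by Pearson's r of log2(CPM + 1). The clusters share 2 libraries and differ in depth, so r is a description. Cp and Steap4 were the most alike pair among the 7 (r = 0.81), followed by Serpina3n and Ptx3 (0.71) and by Ptx3 and Timp1 (0.55). Saa3 and Serpina3n ran opposite (r = -0.52). The genes most like Lcn2 were Lrg1, another acute-phase gene (0.76), Vcam1, an adhesion molecule (0.75), and Id1 (0.73). Those most like Saa3 were Ccl2, a monocyte-attracting chemokine (0.86), Mpeg1 (0.82) and Slc15a3 (0.81).
Serpina3n was most like Nfasc (0.97), Shisa4 (0.96) and Gpr37, a receptor of oligodendrocytes (0.96), and Cp most like Arhgap29 (0.91), Ston1 (0.87) and Cyth3 (0.87). Steap4 was nearest to Tnxb, a matrix protein (0.88), C1s1 of the complement system (0.87) and Cys1 (0.86). Ptx3 was nearest to Bdnf, a neurotrophin (0.83), Scara3 (0.81) and Dio2, which activates thyroid hormone (0.80). Timp1 had the weakest matches, with Sphk1 (0.75), Sh3pxd2b (0.66) and the metallothionein Mt2 (0.66).

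Genes around the 7 were counted in lists of their pathway, each to be read against the 40.9% and 16.5% of all genes that were at least 2-fold higher on the CD45-negative and the CD45-positive side, and against the median log2 difference of 0.58. Of 34 other acute-phase genes, 26 had at least 20 UMIs, and 17 of these were at least 2-fold higher on the CD45-negative side and 6 on the CD45-positive side (median log2 difference 4.26). The metal-binding Mt1 was at 6604 CPM among CD45-negative cells, against 339 CPM among CD45-positive cells, and Mt2 at 1236 CPM among CD45-negative cells, against 22.6 CPM among CD45-positive cells. Tnfaip6, a matrix-binding protein that interacts with pentraxin 3, was at 78.7 CPM among CD45-negative cells, against 1.62 CPM among CD45-positive cells. Cytokines that induce the acute phase leaned the other way, with 3 of 11 at least 2-fold higher on the CD45-negative side and 7 on the CD45-positive side (median -3.39). The 3 were Il6, at 11.5 CPM among CD45-negative and 2.49 CPM among CD45-positive cells, Il11 and Cntf. Il1b was at 25.4 CPM among CD45-negative cells, against 267 CPM among CD45-positive cells, and the neutrophil-like cells that held Lcn2 had 1334 CPM of it. Tnf was at 3.98 CPM among CD45-negative cells, against 90.6 CPM among CD45-positive cells.
Of 17 receptors and signal genes of these cytokines, 4 were at least 2-fold higher on the CD45-negative side and 6 on the CD45-positive side (median -0.15). Cebpd was at 914 CPM in pericyte-like cells, its leading CD45-negative class, while Cebpb was at 86.9 CPM among CD45-negative cells, against 585 CPM among CD45-positive cells. Of 15 iron and copper handling genes, 7 were at least 2-fold higher on the CD45-negative side and 3 on the CD45-positive side (median 0.24). Transferrin (Trf) was led by oligodendrocyte-like cells at 6921 CPM and its receptor Tfrc by endothelial-like cells at 300.4 CPM.
Of 10 receptors of the members, 2 were at least 2-fold higher on the CD45-negative side and 5 on the CD45-positive side (median -1.32). Slc22a17, a receptor of lipocalin 2, was at 119 CPM among CD45-negative cells, against 16.2 CPM among CD45-positive cells. Tlr2, which serum amyloid A can engage, was at 5.41 CPM among CD45-negative cells, against 104 CPM among CD45-positive cells. Of 12 protease targets of Timp1 and Serpina3n, 3 were at least 2-fold higher on the CD45-negative side and 4 on the CD45-positive side (median -0.59). The metalloprotease Mmp3 was at 1349 CPM in choroid plexus epithelial-like cells, which also held Lcn2, and granzyme B (Gzmb) was at 1.59 CPM among CD45-negative cells, against 164 CPM among CD45-positive cells. Of 20 other reactive astrocyte genes, 10 were at least 2-fold higher on the CD45-negative side and 5 on the CD45-positive side (median 1.10).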

How the data were processed

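The 2 brain cell subsets were measured as droplet 3' libraries, with 10x Genomics v3 reagents according to the labels' protocols. The deposited values are raw UMI counts per gene and cell, made by the authors with Cell Ranger 6.1.2 on build mm10, per the submitters' processing notes. The sources used here do not give its strand, intron and cell-calling settings, so reads of overlapping genes on the other strand may not be separated.

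Barcodes with at least 500 UMIs, at least 200 genes and at most 20% mitochondrial UMIs were kept. The sums were 82577080 CD45-negative and 73960481 CD45-positive UMIs. Scrublet in scanpy 1.11.5 called 876 (6.03%) CD45-negative and 177 (2.04%) CD45-positive doublets, which were removed. Each library was clustered alone with 2000 variable genes, 30 principal components, 15 neighbours and Leiden resolution 1, leaving out the 7 members and 34 acute-phase genes. Clusters were named from 23 marker lists. A name needed at least 3 markers in at least 20% of cells. Mixed clusters stayed unnamed or were clustered again. Shallow clusters stayed unnamed if no marker of their class was among their 10 leading genes. The numbers of this naming rule were chosen with the clusters in view, and the members and lists were chosen with earlier results of these data known.

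UMIs were summed per class as CPM with exact Poisson intervals; ratios have conditional binomial and shares Clopper-Pearson intervals, all for counting error only. The ratio intervals were tested on simulated counts. Thinning to 1000 UMIs dropped 684 CD45-negative and also 814 CD45-positive cells. All 7 genes were named, with the 3 genes most like each and up to 4 examples per list, those with the highest level in either library. Il6, Il11 and Cntf were named in addition. Positions are from GENCODE and promoter letters from RefSeq. Software was Python 3.11.15, numpy 2.4.6, igraph 0.11.9 and edgeR 4.0.16 (scaling factors only).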

Additional observations from a re-analysis of the deposited data

How the results depend on the processing

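Under the alternatives, 31 values of the main counts stayed within 1.5 times and 3 did not. Of the single levels and differences, 137 stayed within the counting interval or kept their direction and 35 levels moved further; no difference between the whole libraries changed direction in any alternative run. The number of members at least 2-fold higher on the CD45-negative side stayed 6 under other scalings, cell filters, doublets kept, per-cell means and, chosen after seeing the data, without the highest cell. The count of 1 gene at least 2-fold higher in astrocyte-like cells stayed 1 under the same alternatives except the scalings, and under the other clusterings. Log2 differences between the libraries ranged from 1.16 to 1.71 for Lcn2, from -2.87 to -2.19 for Saa3, from 5.73 to 7.12 for Serpina3n, from 2.14 to 3.57 for Cp, from 2.56 to 3.78 for Steap4, from 4.42 to 6.34 for Ptx3 and from 1.06 to 2.20 for Timp1.

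The leading class was less firm. With the listed genes used in clustering, 4 of 7 genes kept it in the CD45-negative library, where no fibroblast-like class of 50 cells remained. In the CD45-positive library 4 kept it with both libraries clustered together and 2 under the stricter cell filter (1000 UMIs, 500 genes, 10% mitochondrial). That filter left 48 astrocyte-like cells, too few to rank for Lcn2, Serpina3n and Ptx3, and 59 border macrophage-like cells, which then led Saa3 at 991 CPM and Cp at 125 CPM. Fibroblast-like Saa3 was 239 CPM without its highest cell, fibroblast-like Cp 1115 CPM with both libraries clustered together and dendritic-like Timp1 13.4 CPM with both libraries clustered together too; the cause of the last 2 was not tested. No paired analysis was possible because each subset has 1 library. Fewer doublets were called than the assumed rates of 11.6% (CD45-negative) and 6.93% (CD45-positive), so some may remain.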
